A study of Mus musculus with 4 samples.

Results

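The 5 beta-defensin genes *Defb48*, *Defb47*, *Defb43*, *Defb30* and *Defb42* lie next to each other on mouse chromosome 14, in that order, and were followed across the cell types and regions of the epididymis and vas deferens. They were taken by symbol from the 16892 genes of a single-cell RNA count table, in which 40 genes belong to the beta-defensin family (every *Defb* symbol, with *Spag11a* and *Spag11b*). The other 35 family genes lie on chromosomes 1, 2 and 8. The tissue came from male mice of the FVB/NJ strain, 10 to 12 weeks of age, and the groups differ by region alone, with no treatment or genotype named for any of them. For each of the 4 groups, caput, corpus, cauda and vas deferens (labelled Vas), the pieces of 8 organs of the same 4 mice were pooled, depleted of sperm, dissociated and made into 1 library of 3′ tags. Each group is therefore 1 sample, no value has a biological replicate, no test between groups was possible, and every interval given covers counting error only.

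Beta-defensins are small, positively charged secreted peptides that are held in a compact fold by disulfide bonds between conserved cysteines. They were first known as antimicrobial peptides of epithelia, and the epididymis makes an unusually large set of them, several of which coat sperm as they pass along the duct. Principal cells are the tall secretory cells that line this duct, and they change their secreted products from the caput, where sperm enter, through the corpus to the cauda, where sperm are stored, and on into the vas deferens. Basal cells, clear cells (which acidify the fluid), and the stromal, muscle, endothelial and immune cells of the wall make up the rest of the tissue.

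The libraries held 1433 cells and 4408989 unique molecular identifiers (UMIs, one per captured RNA molecule) in the caput, 2325 cells and 6602962 UMIs in the corpus, 1616 cells and 4882822 UMIs in the cauda, and 3506 cells and 10744928 UMIs in the vas deferens. Principal cells made up 3956 of the 8880 cells and fell into 15 subclusters, numbered from the caput (principal 1 to 3) over the caput and corpus (4 and 5), the corpus (6 and 7) and the cauda (8 to 11) to the vas deferens (12 to 15). Of 27 markers fixed for 7 cell types, 26 were highest in their own type. The exception was *Itga6*, listed for basal cells and highest in endothelial cells. The authors named the cell types from marker genes in these same cells, several of them on this list, so the count is not an independent check. A total of 43 barcodes occurred in 2 libraries (86 cells, 0.968% of all cells), and leaving these cells out, a check chosen after the data were seen, kept the counts of genes called below and changed the levels of the 5 genes by 0.956 to 1.04 times.

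In the RefSeq annotation of GRCm38.p6, which is the mm10 assembly used for the counts, *Defb48* covers chr14:62977524-62984510 on the minus strand and *Defb47* covers chr14:62992375-63001180 on the plus strand. *Defb43* follows at chr14:63011771-63018088 (plus), *Defb30* at chr14:63034087-63037846 (minus) and *Defb42* at chr14:63046991-63048606 (plus). The run spans 71.1 kb, with gaps of 7864, 10590, 15998 and 9144 bases between neighbors. The pseudogene *Gm19198*, between *Defb43* and *Defb30*, is the other annotated gene inside the run and is not among the genes of the table. In GENCODE vM21, *Defb48*, *Defb47* and *Defb43* each have 1 transcript of 2 exons with 445, 359 and 408 exonic bases. *Defb30* has 4 transcripts there and *Defb42* has 5, and the long forms of these neighbors overlap each other on opposite strands. The RefSeq spans given above do not overlap, and the RefSeq version that the authors counted with was not examined.

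**Figure D1:**
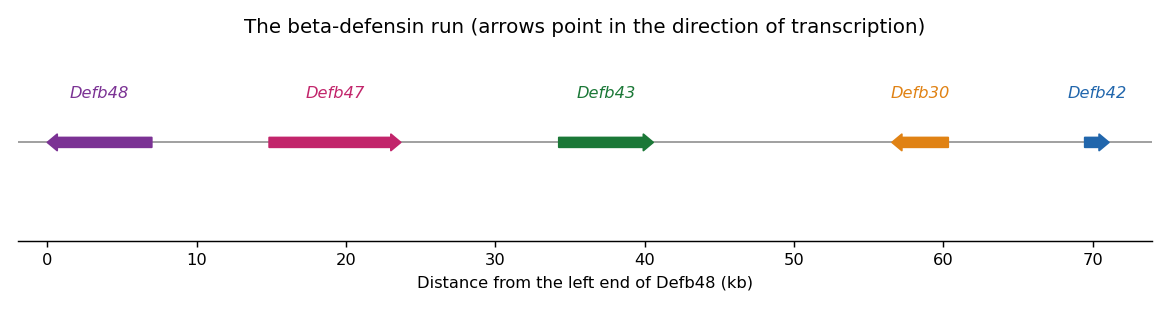
Map of the run drawn to scale, with the distance from the left end of *Defb48* in kb on the horizontal axis and arrows pointing in the direction of transcription. *Defb48* and *Defb30* point left and the other 3 genes point right, and the widest gap, 15998 bases, separates *Defb43* from *Defb30*.

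The sequences just before the transcription starts are shown because in 2 pairs of neighbors the best-aligned stretch lies at nearly the same distance from the start. Each is the 250 bases before the RefSeq start, on the gene's own strand, and none overlaps an exon of GENCODE vM21. For *Defb47* the window precedes the RefSeq start inside its longer gene span. Capitals mark the letters AGAACA or their reverse complement TGTTCT, a half-site recognized by the glucocorticoid receptor, and TATAAA or TTTATA, the TATA box.
Defb48, chr14:62984511-62984760, minus strand: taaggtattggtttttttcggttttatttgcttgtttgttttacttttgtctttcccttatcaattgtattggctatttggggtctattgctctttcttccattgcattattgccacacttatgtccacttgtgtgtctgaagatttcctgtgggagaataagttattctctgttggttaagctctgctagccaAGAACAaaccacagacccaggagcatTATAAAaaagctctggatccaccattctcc
Defb47, chr14:62997827-62998076, plus strand: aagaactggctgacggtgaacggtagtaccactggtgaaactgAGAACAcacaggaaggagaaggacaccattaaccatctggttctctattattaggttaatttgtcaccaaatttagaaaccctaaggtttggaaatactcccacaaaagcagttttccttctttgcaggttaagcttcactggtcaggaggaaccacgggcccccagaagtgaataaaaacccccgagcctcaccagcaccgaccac
Defb43, chr14:63011521-63011770, plus strand: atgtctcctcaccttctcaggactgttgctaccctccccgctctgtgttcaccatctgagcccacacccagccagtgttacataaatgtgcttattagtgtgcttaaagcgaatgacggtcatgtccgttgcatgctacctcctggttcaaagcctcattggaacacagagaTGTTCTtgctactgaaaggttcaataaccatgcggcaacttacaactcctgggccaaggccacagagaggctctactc
Defb30, chr14:63037847-63038096, minus strand: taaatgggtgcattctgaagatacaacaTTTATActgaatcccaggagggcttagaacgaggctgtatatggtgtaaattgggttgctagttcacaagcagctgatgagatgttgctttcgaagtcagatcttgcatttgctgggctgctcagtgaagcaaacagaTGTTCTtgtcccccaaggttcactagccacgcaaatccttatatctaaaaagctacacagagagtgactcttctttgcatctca
Defb42, chr14:63046741-63046990, plus strand: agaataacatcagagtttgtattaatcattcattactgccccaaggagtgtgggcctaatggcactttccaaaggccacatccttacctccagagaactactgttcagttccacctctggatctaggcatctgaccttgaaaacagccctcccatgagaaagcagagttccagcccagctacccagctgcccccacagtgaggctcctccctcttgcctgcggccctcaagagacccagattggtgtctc

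The half-site stood in 4 of these 5 windows and in 5283 of the 32841 RefSeq windows of the same length (16.1%). It lay 56 to 51 bases before the start in *Defb48*, 78 to 73 bases before it in *Defb43*, 84 to 79 bases before it in *Defb30* and farther away, 207 to 202 bases, in *Defb47*. The letters do not occur in the window of *Defb42*, and the full palindrome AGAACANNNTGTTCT occurs in none of the 5 windows and in 3 of all windows. The TATA box stood in the windows of *Defb48*, 30 to 25 bases before the start, and of *Defb30*, on the opposite strand 222 to 217 bases before it, and in 12.4% of all windows. These motifs were chosen with the sequences in view, and a match of letters is a description, not a binding site.

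Among the 10 pairs of windows, the highest-scoring ungapped alignment (1 point for a match, 1 off for a mismatch) was between *Defb43* and *Defb30*, with 21 of 26 bases identical, 96 to 71 bases before the start of *Defb43* and 102 to 77 bases before the start of *Defb30*. The next was between *Defb48* and *Defb47*, with 38 of 62 bases identical, 84 to 23 and 89 to 28 bases before their starts. The other 8 pairs scored 9 to 12, against 16 and 14 for these. Windows of other genes were not aligned, so how often unrelated windows score as high is not known.
Defb43, aligned stretch: ctcattggaacacagagatgttcttg
Defb30, aligned stretch: ctcagtgaagcaaacagatgttcttg
Defb48, aligned stretch: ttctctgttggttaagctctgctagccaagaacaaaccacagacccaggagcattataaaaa
Defb47, aligned stretch: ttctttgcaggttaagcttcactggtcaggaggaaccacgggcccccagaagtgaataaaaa
The pair *Defb48* and *Defb47* had the highest correlation of levels among the 10 pairs (r = 0.93, described below), whereas that of *Defb43* and *Defb30* was negative (r = -0.65).

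All 5 genes were genes of principal cells. Of the 3574 UMIs of *Defb48*, 37250 of *Defb47*, 13445 of *Defb43*, 15519 of *Defb30* and 18740 of *Defb42*, principal cells held 97.9%, 98.6%, 96.2%, 95.8% and 97.1%. With levels given as UMIs per 1000000 UMIs of a group of cells (UPM), the 5 genes had 366 (95% Poisson interval 354 to 378), 3840 (3801 to 3880), 1352 (1329 to 1376), 1555 (1530 to 1580) and 1902 (1874 to 1930) UPM in all principal cells together. The next highest cell type was far below for each gene, at 9.58 UPM in endothelial cells for *Defb48*, 53.7 in basal cells for *Defb47*, 109 in clear cells for *Defb43*, 85.9 in immune cells for *Defb30* and 65.7 in clear cells for *Defb42*. A gene was called a principal cell gene if it had 20 UMIs or more there and a level 4-fold or more above each other cell type, with lower counts raised to 3 UMIs. The call held for 5 of 5, and for 4.75% of the 5282 genes that could have passed. Without the caput library it held for 3 of 5, and *Defb47* and *Defb48* were the exceptions. A 3′ tag counts a molecule once whatever its length, so the levels of different genes were not scaled by length.

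The low levels outside principal cells followed the library. In all other cell types together, *Defb47* had 190 UPM in the caput and 1.35, 0.318 and 0.330 UPM in the corpus, cauda and vas deferens, and *Defb30* had 123, 55.6, 0 and 5.28 UPM. Where a gene had at least 1000 UPM in the principal cells of a library, the other cell types of that library held 0.890% to 3.41% of that level. The summed level of the 7 markers of principal cells was 0.691% to 10.0% of the principal cell level in single other types, library by library, with the 4.99% of the caput immune cells and the 8.77% and 10.0% of the vas and cauda clear cells at the top. Among genes with at least 1000 UPM in the principal cells of the library, 2 cases in single types were above that range. These were *Defb43* at 500.6 UPM in vas clear cells, against 1282 UPM in the principal cells there, and *Defb30* at 1176 UPM in caput immune cells, against 3610 UPM. Genes at lower principal cell levels also went above it. *Defb42* had 160 UPM in vas clear cells (24 UMIs in 4 cells), against 767 UPM. *Defb43* had 15.0 UPM in caput clear cells (4 UMIs), against 9.28 UPM. The level of *Defb30* in immune cells rested on 50 UMIs, of which 30 were in a single caput cell, and that of *Defb43* in clear cells on 160 UMIs, of which 32 were in a single cell of the vas deferens. The part of RNA from principal cells in these levels was not tested.

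**Figure D2:**
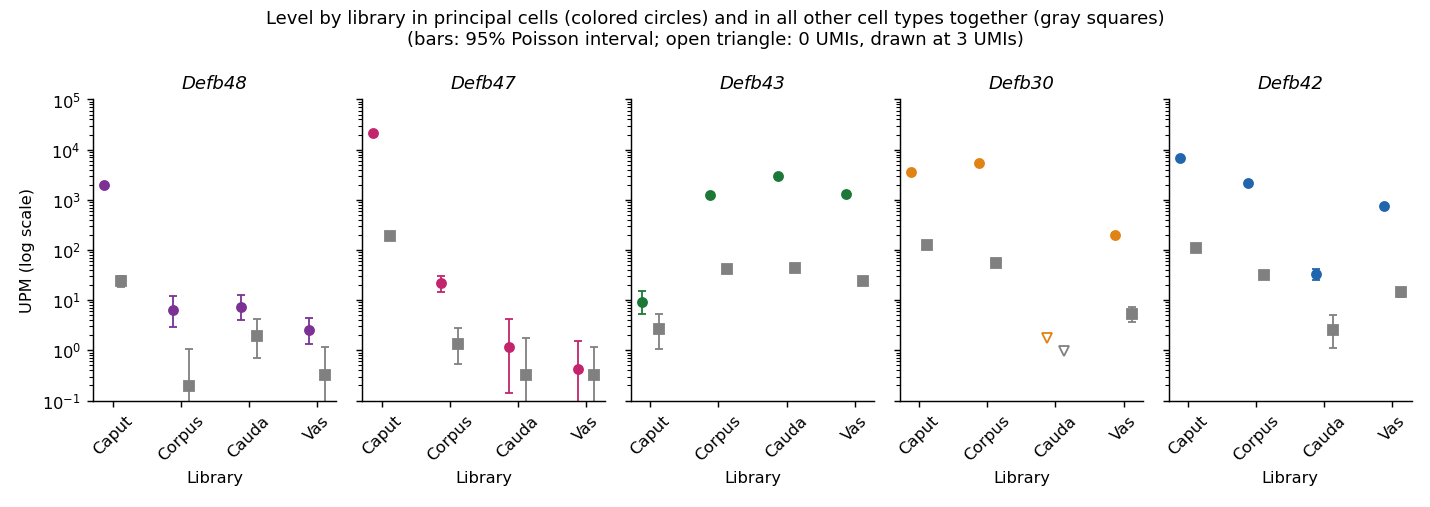
Level of each gene in UPM (log axis) in the principal cells of each library (colored circles) and in all other cell types of the library together (gray squares), with 95% Poisson intervals. An open triangle marks 0 UMIs and is drawn at the floor of 3 UMIs. *Defb48* and *Defb47* stand high in the caput alone, *Defb43* is low in the caput alone, and *Defb30* and *Defb42* are lowest in the cauda, with 0 and 57 UMIs in principal cells.

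At the left end of the run, *Defb48* had 3466 UMIs in caput principal cells, a level of 2011 UPM (1945 to 2079), against 9 UMIs in the corpus (6.34 UPM), 13 in the cauda (7.47 UPM) and 12 in the vas deferens (2.56 UPM). The caput level was 317 times that of the corpus (95% exact conditional interval 167 to 694). Its neighbor *Defb47* had 36696 UMIs in the caput, a level of 21291 UPM (21074 to 21510), 31 in the corpus (21.8 UPM) and 2 each in the cauda and vas deferens (1.15 and 0.427 UPM). The caput level was 974 times that of the corpus (686 to 1434). Both genes were thus caput genes, and the caput held 99.0% and 99.9% of their principal cell UMIs.

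*Defb43*, in the middle of the run, showed the reverse, with 16 UMIs in caput principal cells (9.28 UPM, 5.31 to 15.1), 1757 in the corpus (1238 UPM, 1181 to 1298), 5158 in the cauda (2965 UPM, 2885 to 3047) and 6004 in the vas deferens (1282 UPM, 1250 to 1315). It was 133 times higher in the corpus than in the caput (81.9 to 234) and 2.39 times higher in the cauda than in the corpus (2.27 to 2.53). The corpus and the vas deferens did not differ beyond counting error (ratio 1.04, 0.982 to 1.09).

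*Defb30* had 6222 UMIs in the caput (3610 UPM, 3521 to 3701) and 7700 in the corpus (5427 UPM, 5307 to 5550), none in the 931 principal cells of the cauda and 946 in the vas deferens (202 UPM, 189 to 215). Against the floor of 3 UMIs over the cauda group (1.72 UPM), its level was at least 2093-fold higher in the caput, at least 3147-fold higher in the corpus and at least 117-fold higher in the vas deferens. *Defb42*, at the right end, was instead highest in the caput, with 11523 UMIs in the caput (6686 UPM, 6564 to 6809), 3016 in the corpus (2126 UPM, 2051 to 2203), 57 in the cauda (32.8 UPM, 24.8 to 42.5) and 3593 in the vas deferens (767 UPM, 742 to 793). The caput was 3.15 times the corpus (3.02 to 3.27), the corpus was 64.9 times (49.9 to 85.9) and the vas deferens 23.4 times (18.0 to 31.0) the cauda. These 2 neighbors were therefore lowest in the cauda and present again in the vas deferens.

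With the same limits of 20 UMIs and 4-fold set over libraries, 2 of the 5 genes were restricted to 1 library, *Defb48* and *Defb47*, both to the caput. Over all 8917 genes that could have passed, 6.76% were restricted to a library, which divides into 3.04% for the caput, 1.49% for the corpus, 0.628% for the cauda and 1.6% for the vas deferens. The ratio of the highest to the next library had a median of 3.15 over the 5 genes, that of *Defb42*, and 1.34 over all genes. Over 15 pairs of a gene and 2 neighboring libraries, the genes took 8 steps of at least 4-fold. *Defb48* beyond the caput (9, 13 and 12 UMIs) and *Defb47* from cauda to vas deferens (2 UMIs in each) had too few UMIs to be called. The shares of genes given next are over genes that could have passed. From caput to corpus, *Defb48* and *Defb47* were lower (5.22% of genes were) and *Defb43* was higher (6.56% of genes were). From corpus to cauda, *Defb47*, *Defb30* and *Defb42* were lower (5.66% of genes were), and none was higher (2.05% of genes were). From cauda to vas deferens, *Defb30* and *Defb42* were higher (6.08% of genes were), and none was lower (4.72% of genes were).

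The 15 subclusters resolved these courses further. The authors formed them by clustering the same cells on their expression, so differences between subclusters are a description. *Defb47* was 52059 UPM (51434 to 52689) in principal 1, 11819 (11588 to 12053) in principal 2, 607 (495 to 738) in principal 3, 157 in principal 5 and 113 in principal 4, and at most 7.05 UPM in each of principal 6 to 15. It was the 4th most abundant of all genes in principal 1, with 5.21% of all UMIs there. *Defb48* was highest one subcluster later, at 2931 UPM (2816 to 3049) in principal 2, 1898 (1780 to 2021) in principal 1 and 126 (78.2 to 193) in principal 3. In the cells of principal 3 with at least 1000 UMIs the levels were lower, at 362 UPM for *Defb47* and 25.9 UPM for *Defb48*. From principal 4 to 15 it was at most 10.7 UPM, and no 2 neighbors in that part of the order differed beyond counting error. The ratio of principal 2 to principal 1 was 1.54 (1.43 to 1.67) for *Defb48*, whereas for *Defb47* principal 1 was 4.40 times principal 2 (4.30 to 4.51).

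*Defb30* was highest in the subclusters of the distal caput and proximal corpus, at 29716 UPM (28728 to 30730) in principal 4, 16170 (15814 to 16532) in principal 5 and 8564 (8125 to 9021) in principal 3. It was the 8th most abundant gene of principal 4, with 2.97% of UMIs, and principal 3 to 5 together held 85.3% of its principal cell UMIs. The next levels were 1067 UPM in principal 7, 461 in principal 2 and 312 in principal 14. As a mean over cells, which weights shallow cells equally, principal 2 was instead above principal 7, at 1353 and 999.9 UPM, and principal 6 was 312 UPM in place of 199.6 UPM. Principal 8 had 0 UMIs, principal 9 and 10 had 12.7 and 8.50 UPM, and principal 11 had 35.9 UPM. The cauda cells of these subclusters held 0 UMIs, so these levels came from their few cells of other libraries or, in principal 11, also from its 100 vas deferens cells. In the vas deferens it was 187, 188, 312 and 249 UPM in principal 12, 13, 14 and 15. Principal 12 and 13 did not differ beyond counting error, and principal 14 was 1.25 times principal 15 (1.005 to 1.55). With called doublets left out, principal 14 and 15 were closer, at 278 and 256 UPM.

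*Defb42* was nearly level over the caput and proximal corpus, at 6986, 6632, 5749, 7329 and 5907 UPM in principal 1 to 5. Principal 4 and 1 did not differ beyond counting error (ratio 1.05, 0.972 to 1.13), nor did principal 5 and 3 (1.03, 0.955 to 1.11). It was 458 and 822 UPM in principal 6 and 7 and 21.4, 78.9, 19.8 and 144 UPM in principal 8 to 11. In the vas deferens it was 744 to 858 UPM in principal 12 to 15, and from principal 12 over 7, 13 and 15 to 14 no 2 neighbors in the order differed beyond counting error. *Defb43* was 3.92 to 60.9 UPM in principal 1 to 5 and then 1585, 1862, 3446, 3254, 2150 and 2100 UPM in principal 6 to 11, with principal 8 and 9 not differing beyond counting error (1.06, 0.991 to 1.13). In the vas deferens it was 1341, 1450, 723 and 761 UPM in principal 12 to 15. The lowest of its high subclusters, principal 14, was 11.9 times (5.70 to 29.8) the highest of its low ones, principal 4.

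**Figure D3:**
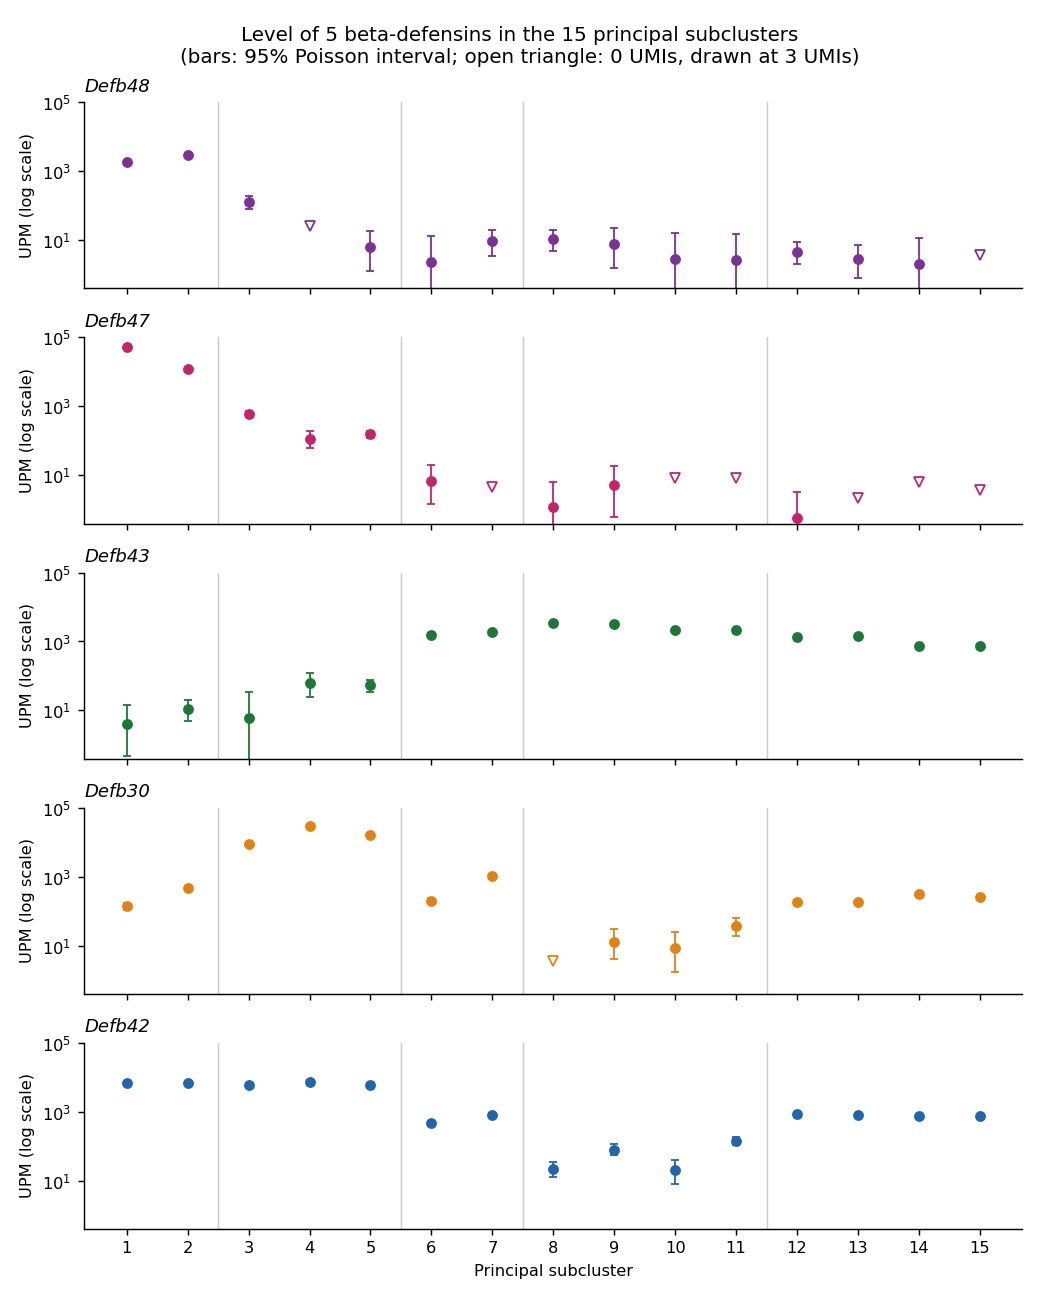
Level of each gene in UPM (log axis) in principal subclusters 1 to 15, with 95% Poisson intervals, many smaller than the points. Gray lines part the subclusters of the proximal caput, the distal caput and proximal corpus, the corpus, the cauda and the vas deferens, and open triangles mark 0 UMIs, drawn at 3 UMIs. *Defb43* is low in principal 1 to 5, where *Defb42* is highest, and in principal 12 to 15 both lie between 723 and 1450 UPM.

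The share of cells with a UMI was taken after each cell was thinned to 1000 UMIs, with shallower cells left out. *Defb47* was found in 79 of 82 cells of principal 1 (96.3%, Clopper-Pearson 95% interval 89.7 to 99.2) and in 114 of 168 cells of principal 2 (67.9%, 60.2 to 74.8). *Defb48* was found in 17 of 82 cells (20.7%, 12.6 to 31.1) and 70 of 168 cells (41.7%, 34.1 to 49.5) of these subclusters. The share with *Defb47* was thus higher in principal 1 than in principal 2, and the share with *Defb48* was lower. *Defb30* was found in every thinned cell of principal 5 (100%, 96.5 to 100), 39 of 40 cells of principal 4 and 22 of 45 cells of principal 3. *Defb42* was found in 91.1% to 100% of the cells of principal 1 to 5, in 28.8% and 40.3% of principal 6 and 7, and in 30.8% to 39.1% of principal 12 to 15. Over all cells of principal 1 to 5 without thinning, its share was 49.7% (principal 3) to 83.8% (principal 4). Of the 151 cells of principal 3, 106 were too shallow to be thinned. *Defb43* was found in 63.3% to 84.8% of the cells of principal 6 to 11 and in 33.3% to 50.8% of principal 12 to 15. *Defb42* and *Defb43* were therefore in a lower share of cells in the vas deferens than in their highest subclusters. As a background, caput endothelial cells (37 cells) held a UMI of *Defb47* in 3 cells (8.11%, 1.70 to 21.9) and of *Defb48* in none, which allows a share of up to 8.11% (3 cells), although 4% of them held it before thinning. Vas deferens endothelial cells (120 cells) held *Defb43* and *Defb30* in 1 cell each (0.833%) and *Defb42* in 3 cells (interval 0.519% to 7.13%). The median depths were 2430 and 2581 UMIs in these endothelial cells against 458 to 2344 UMIs in the principal subclusters. The larger group of caput basal cells (244 cells) held *Defb47* in 12.3% (8.45 to 17.1) and *Defb30* in 5.33% (2.87 to 8.94). The 13.3% of cells with *Defb47* in principal 3 (5.05 to 26.8) and the 8.54% with *Defb30* in principal 1 (3.50 to 16.8) could not be told from these basal cells at this depth. The 14.3% with *Defb30* in principal 2 (9.37 to 20.5) lay above them. The main subclusters of each gene lie far above these backgrounds.

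**Figure D4:**
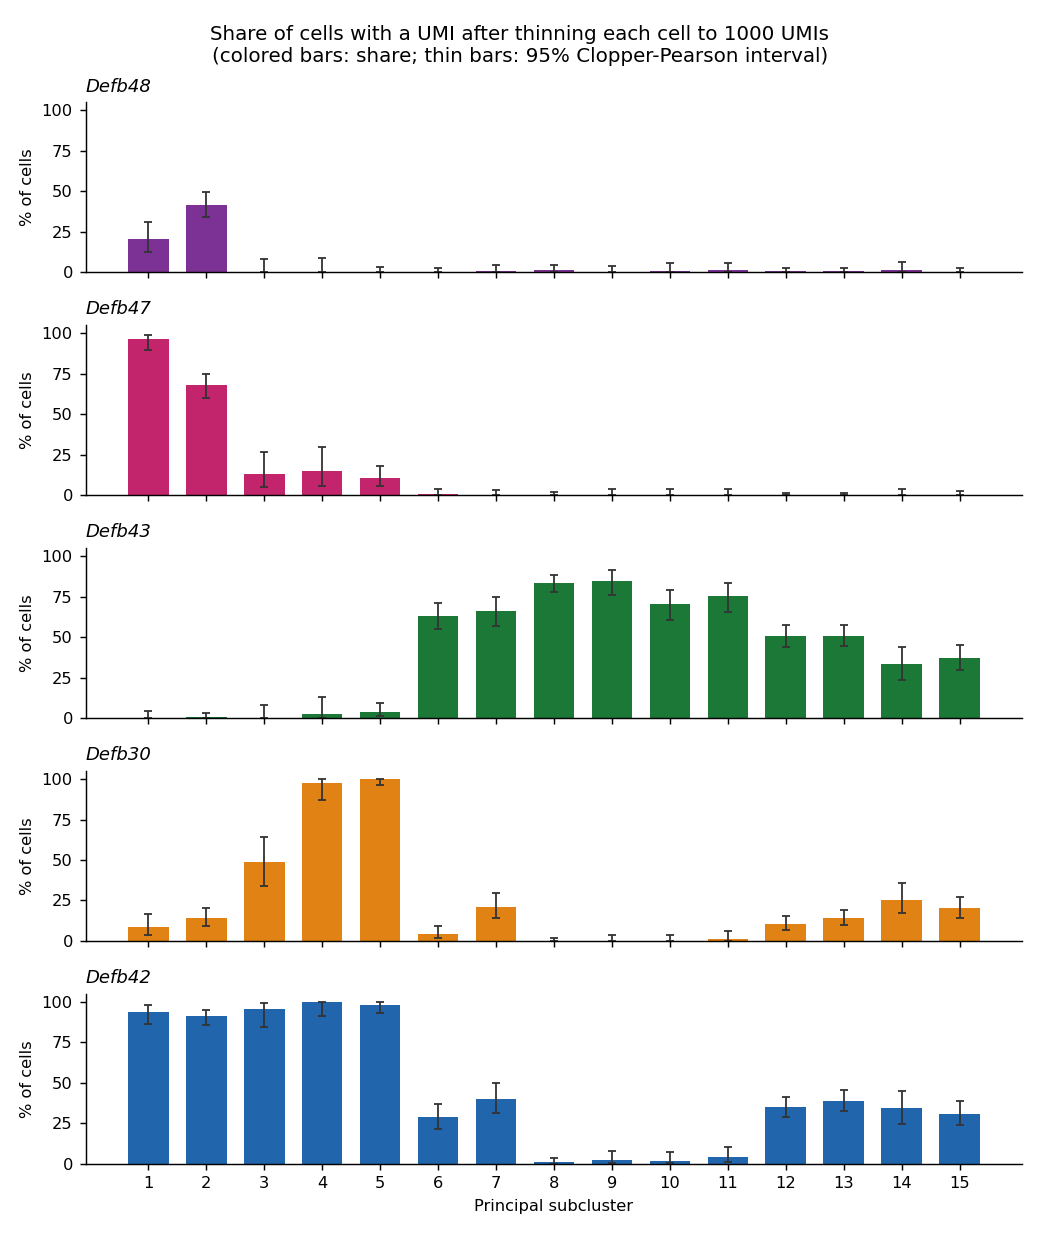
Share of cells with at least 1 UMI of each gene in principal subclusters 1 to 15 after thinning each cell to 1000 UMIs (thin bars, 95% Clopper-Pearson interval). *Defb42* is in over 91% of the cells of principal 1 to 5, and *Defb47*, *Defb30* and *Defb43* reach 96.3%, 100% and 84.8% in principal 1, 5 and 9, whereas *Defb48* does not exceed 41.7%.

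Cells of one block of subclusters were not alike for every gene. In the 250 thinned cells of principal 1 and 2, *Defb48* had a median of 0 UMIs per 1000, a 90th percentile of 8 and a maximum of 34, and the 25 highest cells held 59.0% of its UMIs. *Defb47* had a median of 20 UMIs there, a range of 0 to 106, and 31.7% of its UMIs in the 25 highest cells. *Defb30* in principal 3 to 5 had a median of 15 UMIs and a range of 0 to 62. *Defb42* was the most even, with a median of 6 UMIs and a range of 0 to 22 over 440 cells of principal 1 to 5, and 21.5% of its UMIs in the 44 highest cells. In principal 6 and 7 the 26 highest of 258 cells held 96.5% of the *Defb30* UMIs.

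How often members were detected in the same cell differed between pairs. In principal 2, 59 of the 70 cells with *Defb48* also had *Defb47* (84.3%), against 56.1% of the 98 cells without it. In principal 1, where nearly all cells had *Defb47*, the shares were 94.1% of 17 cells and 96.9% of 65 cells. In principal 3 to 5, 164 of the 166 cells with *Defb30* had *Defb42* (98.8%), against 91.7% of the 24 cells without it. In principal 12 to 15, where *Defb43* was in 329 and *Defb42* in 255 of 722 cells, both were in 108 cells, which are 32.8% of the former and 42.4% of the latter, and 37.4% of the 393 cells without *Defb43* had *Defb42*. In principal 6 and 7, *Defb42* was in 20 of the 31 cells with *Defb30* (64.5%) and in 30.0% of the 227 cells without it, whereas *Defb30* was in 8 of the 167 cells with *Defb43* (4.79%) and in 25.3% of the 91 cells without it. Both contrasts lay mainly in principal 7, with 72% against 31.9% for the first and 6.33% against 50% for the second. In principal 6 the shares were 33.3% (of 6 cells) against 28.6%, and 3.41% against 5.88%. All 5 genes were found together in none of the thinned cells of these blocks. These shares depend on detection at 1000 UMIs per cell and on the mix of subclusters in a block.

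A few subclusters held at least 20 cells of 2 libraries, which allowed cells of the same subcluster to be compared between regions. In principal 5, *Defb30* was 20029 UPM in 67 caput cells and 13903 UPM in 172 corpus cells (ratio 1.44, 1.38 to 1.51), and *Defb42* was 6620 and 5488 UPM (1.21, 1.12 to 1.30). Both genes were higher in the caput cells. *Defb47* was 307 UPM in these caput cells, from 55 UMIs in 9 cells, and 68.8 UPM in the corpus cells (ratio 4.46, 2.65 to 7.76). Both levels of *Defb47* were under 2% of its caput principal cell level, and it had 190 UPM in the non-principal cells of the caput and 1.35 UPM in those of the corpus.

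In principal 11, which held 141 cauda and 100 vas deferens cells, *Defb43* did not differ beyond counting error (2201 and 1883 UPM, ratio 1.17, 0.993 to 1.38, and 0.952 in cells with at least 1000 UMIs), whereas *Defb42* was 47.2 UPM in the cauda cells (12 UMIs in 6 cells) and 377 UPM in the vas deferens cells (40 UMIs in 15 cells). The ratio of cauda to vas deferens was 0.125 (0.0598 to 0.244). Principal 9 gave the same picture, with *Defb43* at 3132 UPM in 100 cauda cells and 3499 UPM in 26 vas deferens cells (0.895, 0.797 to 1.01) and *Defb42* at 3 UMIs and 213 UPM (28 UMIs in 4 cells), a ratio of 0.0542 (0.0106 to 0.176). In principal 8, *Defb43* was 2225 UPM in 22 corpus cells (24 UMIs) and 3464 UPM in 486 cauda cells (0.642, 0.411 to 0.958). *Defb30* had 0 UMIs in the cauda cells and 5 UMIs in 3 vas deferens cells of principal 11. In principal 9 and 11 the *Defb42* level of the vas deferens cells was below the 744 to 858 UPM of principal 12 to 15 and above the 14.4 UPM of the non-principal cells of the vas deferens.

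Across the 15 subclusters, Pearson's r of log2(UPM + 10) was 0.93 between *Defb48* and *Defb47* and 0.83 between *Defb30* and *Defb42*. *Defb43* had negative values with all other members, from -0.65 with *Defb30* over -0.73 with *Defb48* and -0.87 with *Defb42* to -0.90 with *Defb47*. The subclusters share libraries and depth, so these values only describe the patterns. Among the 7792 genes compared, the 3 most like *Defb48* were *Adam28*, a membrane protein of the ADAM protease family that is also on chromosome 14 (r = 0.99), the small GTPase gene *Rem1* and *Ly6g5b* of the Ly6 family. Those most like *Defb47* were all on chromosome 2: the beta-defensin *Defb25* (r = 0.99), the lipocalin *Lcn8* and the cystatin *Cst11*. *Defb43* was most like *Cd52* (r = 0.98), whose small lipid-anchored glycoprotein is passed on to sperm, then *Ly6f* and *Cwh43*. *Defb30* was most like the chromosome 8 beta-defensin *Defb13* (r = 0.95), the glutathione S-transferase *Mgst1* and the matrix protein gene *Ecm1*. *Defb42* was most like *Mgst1* (r = 0.91), the interferon gamma receptor chain *Ifngr2* and the ubiquitin ligase *Lnx1*. No gene of the run was among the 3 genes most like another.

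The gene to the right of the run took no 4-fold step between libraries. *Ctsb*, a lysosomal protease to the right, was 199.6, 188, 208 and 199 UPM in the principal cells of the caput, corpus, cauda and vas deferens, and was highest in immune cells (1422 UPM). *Wdfy2*, to the left, was at most 7.90 UPM in the principal cells of any library. *Ccr2*, a chemokine receptor that binds some beta-defensins, had 55 of its UMIs in immune cells and 2 in principal cells.

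Known markers of region were where the labels place them. *Lcn8* was 11638 UPM in caput principal cells and at most 4.93 UPM in the other libraries, *Npy* was highest in the corpus (2689 UPM), *Gpx3* in the cauda (5381 UPM) and *Akr1b7* in the vas deferens (51317 UPM).

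Set beside the rest of the family, the run held less than 40% of the beta-defensin UMIs in each epididymal subcluster and most of them in those of the vas deferens. The 40 family genes together were 236135 UPM in principal 1 and the 5 genes of the run 25.9% of that, below *Defb20* as the leading gene at 95126 UPM. The 5 genes held 20.3% and 11.1% of family UMIs in principal 2 and 3, where *Spag11b* led, 38.4% and 37.3% in principal 4 and 5, where *Spag11a* led, and 4.89% to 11.9% in principal 6 to 11, where *Defb28* led. In principal 12 to 15 the family summed to 2820, 3021, 1947 and 1931 UPM, and the 5 genes held 84.8%, 80.0%, 91.5% and 90.9% of it, mostly as *Defb43*, *Defb42* and *Defb30*. The highest of the other family genes there was *Defb2*, at 57.2 to 322 UPM. Of the 35 other family genes, 29 could have passed the rule for libraries, 15 were restricted to a library (7 to the caput, 5 to the corpus and 3 to the cauda), and 23 were principal cell genes by the rule. None of these 29 genes was highest in the vas deferens, nor was any gene of the run. The median ratio of the highest to the next library was 5.38 over the 29 genes, and 162, 14.1 and 3.27 over those on chromosomes 1, 2 and 8, against 3.15 for the run. With 3 pairs of neighboring libraries for each gene, the other genes took 55 steps over 87 pairs, against 8 over 15 for the run. Both totals hold pairs with under 20 UMIs in both libraries, which the rule cannot call, so the shares of steps cannot be compared.

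**Figure D5:**
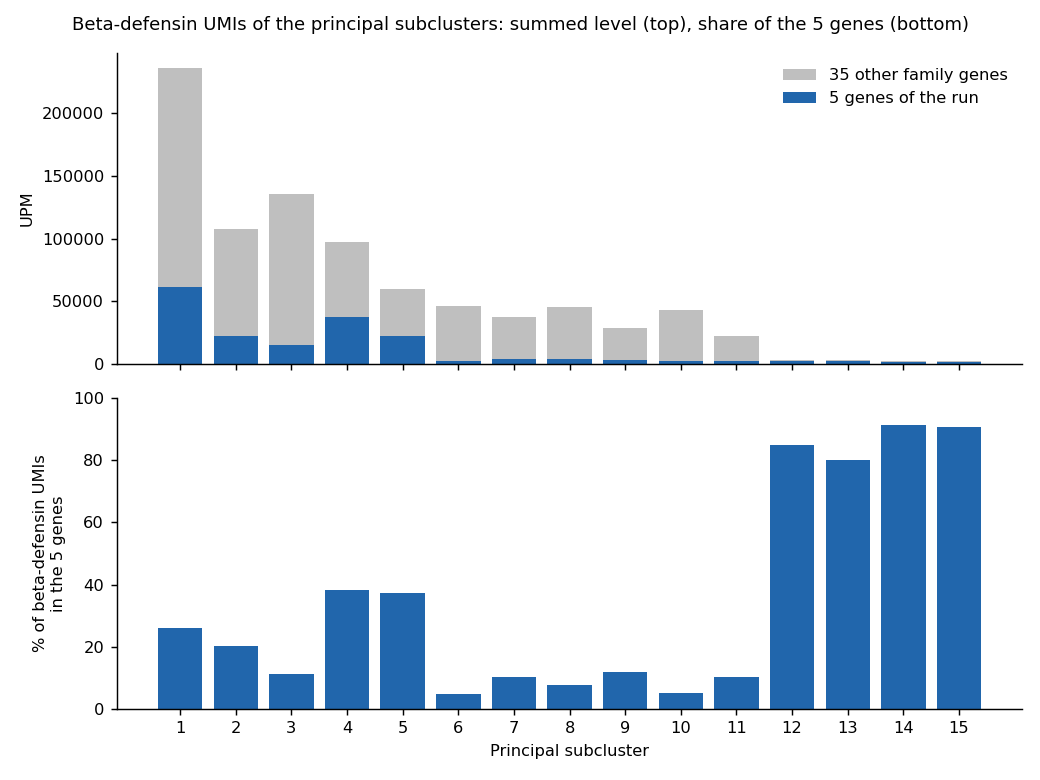
Summed level of the beta-defensin family in UPM in principal subclusters 1 to 15 (top), with the 5 genes of the run in blue and the 35 other genes in gray, and the percentage of family UMIs in the 5 genes (bottom). The total is largest in principal 1, at 236135 UPM, and the share of the run is 80.0% to 91.5% in principal 12 to 15 and at most 38.4% elsewhere.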

How the data were processed

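The data are 4 single-cell libraries (10x 3′ kit), 1 for each region. The authors aligned reads to mm10 (HISAT2 2.0.4), counted UMIs on RefSeq genes with ESAT, leaving out reads that map to several places, merged UMIs with sequencing errors, kept cells within limits of total UMIs and subtracted ambient RNA with a modified SoupX. The deposited values are whole UMI counts per gene and cell, and 2.80% to 4.48% of the UMIs of a library had been removed as ambient. Whether counting used strand is not given in the sources used here. The deposited cell types and subclusters were used without re-clustering, under the paper's numbering, matched through the numbers of cells.

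From these, the UMIs of all cells in a group were added and given per 1000000 UMIs (UPM). In principal cells a floor of 3 UMIs is 1.74, 2.11, 1.72 and 0.641 UPM in the caput, corpus, cauda and vas deferens. Rules used at least 20 UMIs and 4-fold, and were tested on simulated data. The 95% intervals are exact ones: Poisson for a level, conditional binomial for a ratio, Clopper-Pearson for a share. A gene "could have passed" a rule if it had 20 UMIs and a level at least 4 times the floors of the groups it was compared with. Doublets were called per library against simulated ones (178 cells, at a cutoff that 39.5% of simulated doublets reached) and were kept. The genes named outside the run are the 3 most like each member, the leading family gene of each subcluster, the flanking genes and lists of receptors and markers. Alternatives were other folds, minimums and floors, deep cells, means over cells, doublets or libraries left out and other thinning and likeness measures. The 5 genes, the motifs and all lists were chosen with earlier results of these data known. *Ccr6* is not among the genes of the table, and 1 other listed gene is not reported here.

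Promoter windows came from RefSeq (GRCm38.p6), in which all 5 genes matched, and exons from GENCODE vM21. With blastn 2.17.0 (e-value 1e-05), *Defb48*, *Defb47* and *Defb43* transcripts matched no transcript of another gene, and the best matches of *Defb30* and *Defb42* were 77.1% identical over 70 bases (6 genes matched) and 74.3% over 292 bases (408 genes matched). The scripts ran in Python 3.11.15 with pandas 2.3.3, scipy 1.17.1, matplotlib 3.10.9, scikit-learn 1.9.0 and numpy 2.4.6.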

Additional observations from a re-analysis of the deposited data

How the results depend on the processing

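With 1 library per region, depth sets the limit of each value and nothing here measures variation between animals or dissections. The count of 2 genes restricted to a library was 2 under all alternatives but a fold of 2, which gave 4 by adding *Defb43* (cauda) and *Defb42* (caput), and the count of other beta-defensins went from 15 to 25 with it. The count of principal cell genes was 5 under all alternatives but the one without the caput library, which gave 3. The count of steps was 8 in all settings but a fold of 2 (11). Leaving out called doublets changed the 55 levels checked by 0.863 to 1.18 times, and using cells with at least 1000 UMIs or a mean over cells changed them by 0.205 to 1.10 and 0.627 to 3.27 times. Beyond 1.5 times, as a mean over cells, *Defb48* was 1325 UPM in the caput and 1190 UPM in principal 1, *Defb30* reached 299 UPM in principal 1 and 312 UPM in principal 6, and *Defb42* in principal 11 was 283 UPM and, in deep cells, 86.3 UPM. Also, *Defb43* in principal 5 was 26.0 UPM in such deep cells and 176 UPM as a mean over cells, *Defb48* in principal 3 was 25.9 and 404 UPM, *Defb47* in principal 3 was 362 and 1265 UPM, and *Defb30* in principal 2 was 350 and 1353 UPM. The mean over cells gave 5122 UPM for *Defb30* in the caput against 5373 UPM in the corpus. Of 7 ratios within a subcluster, deep cells moved 2 outside their interval, *Defb30* in principal 5 (1.55) and *Defb43* in principal 11 (0.952, which turns its direction). Without thinning, cells with *Defb43* in principal 8 were 55.6% in place of 83.7%, and cells with *Defb48* in principal 2 were 29.5%. Cells with *Defb42* in principal 4 were then 83.8% in place of 100%. At a depth of 500 UMIs, *Defb43* in principal 8 was in 68.3% and *Defb42* in principal 4 in 84.7% of cells. By Spearman's rho, 0 of the 3 genes most like a member stayed for 4 members and 1 of 3 for *Defb30*, and within the 11 epididymal subclusters 0 stayed for *Defb30* and *Defb42* and 1 for *Defb43*. Leaving out cells whose barcode occurs in 2 libraries, added after seeing the data, moved 1 of 55 levels outside its counting interval (*Defb30* in the caput, 3505 UPM). No paired analysis was possible because each group is 1 library. The cause of these changes was not tested.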
